A study of Homo sapiens with 12 samples.

Results

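The CFTR locus was taken as the 750-kb window of chromosome 7 from position 116900000 to 117650000 (hg19, as are all peak positions here). It holds CFTR at about 117120000 to 117308700 and CTTNBP2 at about 117350700 to 117513600. Its members are the called H3K27ac peaks that overlap it, 84 of the 190767 peaks of the series, which merged into 43 of 58994 regions. The window was chosen by position after the peak lists had already shown an excess of SUIT2 peaks there. The contrast of SUIT2 with the other lines is therefore described below and not tested.

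H3K27ac, the acetylation of histone H3 at lysine 27, was mapped by ChIP-seq in BxPC3, Panc327 and SUIT2, 3 established lines of human pancreatic cancer. BxPC3 comes from a primary pancreatic tumour and SUIT2 from a liver metastasis. The cells were untreated and carried no engineered change named in the labels. Each line gave 2 H3K27ac libraries, each with its own peak list, and 2 input libraries of unselected chromatin, 12 samples in all. Each line is a single tumour's line, and the labels do not say whether the replicates were separate cultures.

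H3K27ac marks active promoters and enhancers, and long runs of it often surround genes tied to a cell's identity. CFTR is the chloride and bicarbonate channel of the apical membrane of secretory epithelia. In the pancreas it sits in duct cells, where it drives the fluid that carries enzymes to the gut, and its loss in cystic fibrosis blocks the ducts. Its regulation is a known case of control at a distance, with different sets of enhancers inside and around the gene in airway and gut epithelium. CTTNBP2, which runs towards CFTR on the opposite strand, encodes a cortactin-binding protein best known from dendritic spines of neurons. In the order of protein-coding genes of the RefSeq table, ST7, WNT2 and ASZ1 precede CFTR, and LSM8 and ANKRD7 follow CTTNBP2. Which of these neighbours lie inside the window was not looked up, so the stretches beside CFTR and CTTNBP2 are not known to be free of genes. WNT2 is a secreted Wnt ligand and ASZ1 a germ-cell protein. Transcripts were not measured here, so a peak says nothing of how much of a gene was expressed.

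The 250 bases before the start of each gene are shown because peaks at these starts were among the strongest of the window. They are RefSeq sequences of GRCh38.p14, matched by gene symbol, and their positions are on that build and not on the hg19 build of the peaks. The CFTR sequence is chr7:117479775-117480024 on the plus strand. The CTTNBP2 sequence, before the outermost of its 2 listed starts, is chr7:117873442-117873691 on the minus strand. Both read 5′ to 3′ towards the gene, and capitals mark matches to the motifs named after them.
CFTR: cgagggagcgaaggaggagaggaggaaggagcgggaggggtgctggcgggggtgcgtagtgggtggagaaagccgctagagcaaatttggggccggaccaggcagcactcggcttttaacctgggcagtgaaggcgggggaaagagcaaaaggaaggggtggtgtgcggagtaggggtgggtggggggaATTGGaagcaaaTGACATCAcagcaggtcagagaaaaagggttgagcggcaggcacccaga
CTTNBP2: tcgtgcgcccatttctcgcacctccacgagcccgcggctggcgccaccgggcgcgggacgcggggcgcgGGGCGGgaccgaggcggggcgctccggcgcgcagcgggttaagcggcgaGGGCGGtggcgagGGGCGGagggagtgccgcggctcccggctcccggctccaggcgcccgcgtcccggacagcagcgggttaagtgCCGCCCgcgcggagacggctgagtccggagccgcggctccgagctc

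The 2 promoters differed in base composition. The CFTR sequence was 61.2% G and C with 11 CpG dinucleotides, and its ratio of observed to expected CpG of 0.641 stood at percentile 55.3 of 35116 RefSeq promoter sequences of the same length. The CTTNBP2 sequence held 45 CpG dinucleotides, with a ratio of 1.14 at percentile 98.1, and its G and C content stood at percentile 96.7, against 57.0 for CFTR. The motifs searched, on both strands, were the TATA box (TATAAA), the CCAAT box, the GC box (GGGCGG), the cAMP response element (TGACGTCA), its variant in CFTR (TGACATCA) and the AP-1 site (TGACTCA). They were picked with the CFTR promoter in mind. The CFTR sequence held CCAAT once, on the other strand, 61 bases before the start, and TGACATCA 49 bases before it, with no shared base. Of all promoter sequences, 32.0% held CCAAT and 2.37% held TGACATCA. The CTTNBP2 sequence held GGGCGG at 4 places, 3 of them on the gene's strand, and 42.6% of all promoter sequences held it. TATAAA (10.7% of promoters), TGACGTCA (1.65%) and TGACTCA (4.20%) matched neither sequence. These matches describe letters and show no bound factor.

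H3K27ac at the locus was found almost entirely in SUIT2. The SUIT2 lists held 41 peaks in replicate 1 and 40 in replicate 2. BxPC3 held 1 peak in each replicate, Panc327 held 1 in replicate 1 and 0 in replicate 2. Both SUIT2 libraries thus lay far above the other 4, an excess already known when the window was chosen. SUIT2 peaks covered 92.8 and 106 kb of the window in replicates 1 and 2, a mean of 99.2 ± 9.03 kb (SD, n = 2). BxPC3 peaks covered 0.295 and 1.13 kb (0.712 ± 0.590 kb, SD, n = 2), and the Panc327 peak covered 0.639 kb in replicate 1 (0.320 ± 0.452 kb over both, SD, n = 2). The window held 0.154% and 0.167% of all bases under peaks in the SUIT2 lists, and at most 0.00207% in any other list. A peak list does not show how much DNA was there to be marked. Copy number was not tested, so at a place without peaks in BxPC3 or Panc327, missing H3K27ac and missing DNA cannot be told apart. With 2 libraries against 2, an exact permutation test cannot go below p = 0.333, so none was made.

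**Figure D1:**
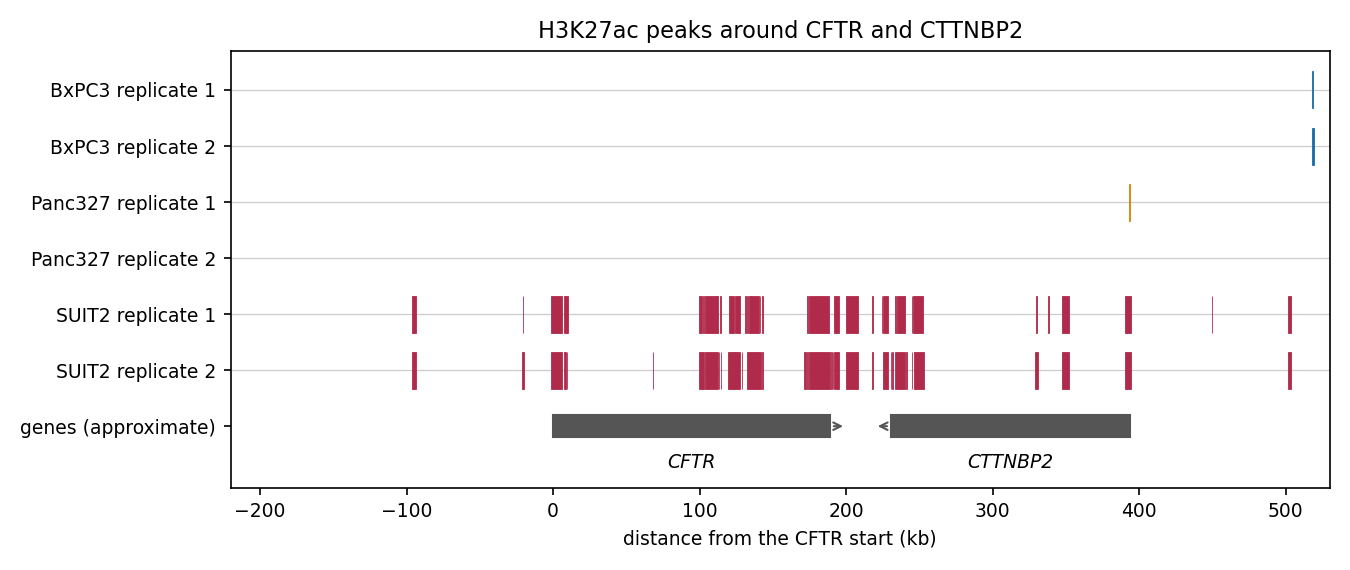
H3K27ac peaks of the 6 libraries (rows, boxes to scale) against distance from the CFTR start in kb, with the approximate spans of both genes and arrows in the direction of transcription. SUIT2 holds 41 and 40 peaks, most of them between the CFTR start and the CTTNBP2 start, while the other 4 libraries hold 0 or 1.

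Overlapping peaks of the 6 lists, by 1 bp or more, were joined into regions. A line counted as marked at a region if each of its 2 libraries had a peak in it. Of the 43 regions, 28 were marked in at least 1 line. SUIT2-only regions, marked in SUIT2 with no peak in the other 4 lists, numbered 26, which is 92.9% of the marked regions. Over the genome 17.7% of marked regions were SUIT2-only. Of the 27 regions marked in SUIT2, the 26 made up 96.3%, against 28.5% over the genome. These shares chose the window and support nothing further. No region of the window was marked in all 3 lines, a class that held 29.4% of marked regions over the genome. The 1 region marked in SUIT2 that was not SUIT2-only lay at the CTTNBP2 start. The 1 BxPC3-only region, a class with 17.6% of marked regions over the genome, lay near the far edge of the window. The other 15 regions were called in a single SUIT2 library, 6 in replicate 1 and 9 in replicate 2. The count of 26 became 39 without SUIT2 replicate 1 and 40 without replicate 2, when the 1 library left marks the line alone and merged regions are rebuilt from fewer lists. It became 16 when peaks up to 1 kb apart were merged.

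SUIT2-only regions, merged over both SUIT2 libraries, were wide here, but single SUIT2 peaks were not. The median width of these regions was 3211 bp in the window and 1150 bp over the genome. Single peaks had a median width of 901 bp in the window and 1504 bp in the whole list in SUIT2 replicate 1. In replicate 2 these medians were 996.5 and 1481 bp. The comparisons of regions and of single peaks differ in their members. Single peaks include calls of 1 SUIT2 library alone, and the whole list includes peaks shared with other lines. How much merging adds to the region widths was not tested. The window was chosen for its SUIT2 excess, so these widths are a description. Of the 26 regions, 9 were wider than 5 kb, and 2.98% of SUIT2-only regions over the genome were. Among the 100 widest SUIT2-only regions of the genome, 8 lay in this window, which held 0.339% of all such regions. The narrowest measured 509 bp and the widest 9201 bp.

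At the CFTR start, around the CpG-poorer of the promoters printed above, SUIT2 carried the strongest peak of the window. It ran from 117118259 to 117123890 in the replicate 1 list. In the replicate 2 list its bounds were 117118242 and 117126185. The fold over local background was 91.0 in replicate 1 and 95.8 in replicate 2, and the −log10 q was 736 and 771. Fold and q are the authors' own values for each peak, read only within a list. By −log10 q the peak ranked 2036 and 2173 in those lists, at percentiles 93.2 and 93.1. The summits lay at -423 and -377 bp from the approximate start, where a minus sign means upstream of it. No BxPC3 or Panc327 library had a peak within 2 kb of the CFTR start, or within 5 kb. The nearest peaks lay 525 kb before the start in all 4 libraries. On the far side they lay 518 kb away in both BxPC3 libraries, 393 kb in Panc327 replicate 1 and 703 kb in Panc327 replicate 2.

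Weaker SUIT2 peaks followed the start peak into the gene. A region at 7.29 to 9.74 kb after the start was called in both SUIT2 libraries, with a highest −log10 q of 12.6 in replicate 1 and 21.9 in replicate 2. A small peak from 9.77 to 10.1 kb was called in replicate 1 alone, with a −log10 q of 9.97. Together with the start peak they formed a cluster of 11.8 kb, joining SUIT2 peaks less than 10 kb apart. An enhancer in the first intron of CFTR, named for a place 10 kb into it, is known from gut epithelium. Within 1 kb of that distance, SUIT2 replicate 1 had 2 peaks and replicate 2 had 1, none with a −log10 q above 15.7, and the other 4 libraries had none.

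From 10.1 to 99.5 kb after the start, SUIT2 had a single small peak, 67.8 kb into the gene and in replicate 2 alone. A second cluster began 99.5 kb after the start and ended at 143 kb, spanning 43.8 kb from 117219537 to 117263363. SUIT2 replicate 1 had 14 peaks in it that covered 61.6% of its span, and replicate 2 had 12 that covered 71.3%. This cluster ranked 167 by span among 20031 SUIT2 clusters of the genome. Its broadest region, also the region of the window with the most covered bases in SUIT2, was 9.20 kb wide, from 117223519 to 117232719. Its summit lay 108.9 kb after the start in replicate 1 and 109.0 kb in replicate 2. Its fold was 32.8 in replicate 1 and 46.6 in replicate 2, with −log10 q of 218 and 289. A second broad region, 8.14 kb from 117252391 to 117260533, was called as 3 peaks in replicate 1 and as 1 in replicate 2. Its highest −log10 q was 132 in replicate 1 and 215 in replicate 2. Another region, of 3.99 kb, from 117239220 to 117243212, had −log10 q of 78.4 and 89.0. The exon and intron of these regions are not given, since no hg19 annotation was used.

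The longest stretch of marked chromatin joined the end of CFTR to the end of CTTNBP2. The cluster there spanned 81.8 kb from 117291420 to 117373237, which is 171 to 253 kb after the CFTR start. It held 15 peaks in SUIT2 replicate 1 and 17 in replicate 2, covering 41.3 and 47.5 kb, and ranked 22 of 20031 SUIT2 clusters by span. Inside CFTR it held a 7.27-kb region, from 117294763 to 117302032, with −log10 q of 87.8 in replicate 1 and 119 in replicate 2. Next to it lay a 6.86-kb region, from 117302348 to 117309211, that reached past the approximate end of the gene, with −log10 q of 195 and 214. Without SUIT2 replicate 2 the cluster spanned 79.0 kb.

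Between the genes, a region of 8.16 kb, from 117319763 to 117327919, carried one of the strongest peaks of the window. By −log10 q it came after both gene starts in SUIT2 replicate 1 and ahead of the CTTNBP2 start in replicate 2. Its fold was 77.6 in replicate 1 and 77.4 in replicate 2, its −log10 q was 560.5 and 608, and its percentile 87.1 and 87.9. The summits lay 203.8 kb after the CFTR start in both libraries. A further 3.44-kb region followed, from 117345138 to 117348579, with −log10 q of 150 and 139. Of the 42.0 kb between the genes, SUIT2 peaks covered 35.1% in replicate 1 and 42.4% in replicate 2, the densest of the 5 segments of the window.

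Inside CTTNBP2, near the end of the gene, 2 more SUIT2-only regions were among the strongest of the window. Regions named here beyond the gene starts and the 5 with the most covered bases were picked with their values in view. The region from 117353135 to 117360307 (7.17 kb) had −log10 q of 543 in replicate 1 and 571 in replicate 2. The region from 117366199 to 117373237 (7.04 kb) had −log10 q of 433 and 530. From 253 to 329 kb after the CFTR start no library had a peak. Beyond it, still in CTTNBP2, a 5.20-kb region from 117467054 to 117472255 had −log10 q of 165 and 168. CFTR was covered over 25.4% and 29.0% of its span in SUIT2 replicates 1 and 2, a mean of 51.4 ± 4.74 kb (SD, n = 2). CTTNBP2 was covered over 13.6% and 15.1%, a mean of 23.4 ± 1.77 kb (SD, n = 2). The 26 SUIT2-only regions fell 14 in CFTR, 4 between the genes, 5 in CTTNBP2, 2 before CFTR and 1 after CTTNBP2.

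The CTTNBP2 start, with the CpG-rich promoter printed above, was the 1 place of the window shared between lines. SUIT2 had a peak there of 3874 bp in replicate 1 and 3907 bp in replicate 2, with −log10 q of 588 and 581. Panc327 replicate 1 had a peak of 639 bp from 117513036 to 117513674, with fold 15.5 and −log10 q of 36.9, at percentile 32.8 of its list. Panc327 replicate 2 and both BxPC3 libraries had none. The Panc327 peak lay inside the bounds of the SUIT2 peaks. The Panc327 call therefore rests on 1 library. Without that library the region joined the SUIT2-only class, which then numbered 27.

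**Figure D2:**
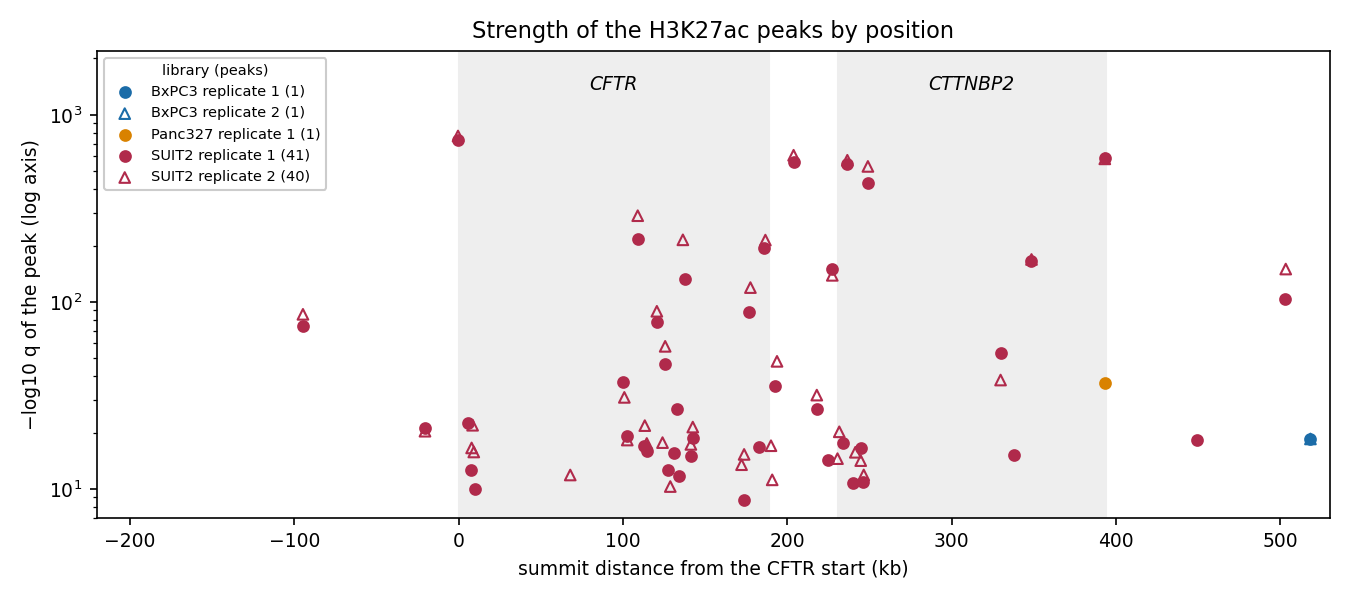
Each point is an H3K27ac peak, placed by the distance of its summit from the CFTR start (kb) and its −log10 q (log axis), with filled circles for replicate 1, open triangles for replicate 2 and grey bands for the approximate gene spans. The highest SUIT2 points, at 736 and 771, lie at the CFTR start, and the single Panc327 point, at 36.9, lies at the CTTNBP2 start. Heights compare within a library.

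Before CFTR the mark was sparse. SUIT2 covered 2.18% and 2.53% of the 220 kb before the gene. A 2.98-kb region from 117023707 to 117026685 had −log10 q of 74.0 in replicate 1 and 85.7 in replicate 2. A small region from 117098959 to 117099793 had −log10 q of 21.3 and 20.3. Airway epithelium is known for elements named for places 35 and 44 kb before CFTR. No library had a peak within 1 kb of either, and the nearest peak of SUIT2 replicate 1 lay 14.4 kb from the former and 23.4 kb from the latter. These elements and the one in the first intron were picked from general knowledge after the peaks were seen, and distances count from the approximate start. Other known elements of CFTR were not looked up, so these places do not show how known elements were marked as a set. After CTTNBP2, a SUIT2-only region from 117621590 to 117623829 had −log10 q of 103 and 150. The BxPC3-only region, from 117637866 to 117638994, had −log10 q of 18.4 in replicate 1 and 18.5 in replicate 2, percentiles 18.4 and 20.7. It was lost at a −log10 q of at least 20.

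Most SUIT2 peaks of the window were weak for their list. The median −log10 q was 22.6 in the window and 96.3 in the whole list in replicate 1, and 21.8 against 91.6 in replicate 2. In replicate 1, 23 of 41 peaks lay in the lowest 25% of the list, and in replicate 2, 21 of 40. Only the CFTR start peak lay in the top 10% of either list. Peaks with a −log10 q under 20 held few of the bases: without them, the mean number of peaks went from 40.5 to 23 and the mean covered length from 99.2 to 88.7 kb.

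The SUIT2 libraries matched each other at most peaks of the window, though less closely than over the genome. Of the 41 peaks of replicate 1, 35 overlapped a peak of replicate 2, and of the 40 peaks of replicate 2, 31 overlapped one of replicate 1. Unmatched peaks were weak, with −log10 q of 9.97 to 18.3 (replicate 1) or 10.3 to 21.8 (replicate 2). For the 15 peaks of replicate 1 with a −log10 q of at least 50, the nearest summit of replicate 2 lay a median of 63 bp away and at most 1510 bp. Replicate 2 also called 94.1% of the bases of replicate 1, and replicate 1 called 82.7% of those of replicate 2. The Jaccard index, shared over combined bases, was 0.786 in the window and 0.868 over the genome.

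Regions with a peak in every library lay on both sides of the locus, although stretches without peaks beside it were found in SUIT2 too. The nearest regions with a peak in all 6 libraries were 116591878 to 116595647 before the window and 117822302 to 117826886 after it, 1.23 Mb apart. At the former, BxPC3 had −log10 q of 274 and 458, Panc327 of 570.4 and 147, and SUIT2 of 985 and 1047. At the latter BxPC3 had 228 and 378, Panc327 had 339.8 and 87.0, and SUIT2 had 827 and 847. In the SUIT2 lists these peaks stood at percentiles 94.8 to 97.6, a little above the CFTR start at 93.1 and 93.2. Panc327 replicate 2 had no peak at all between the shared regions, and Panc327 replicate 1 had the 1 at the CTTNBP2 start. BxPC3 had 4 in each replicate, covering 1.88 and 4.17 kb, and SUIT2 had 42 and 41, covering 93.4 and 106 kb. The 1043-kb stretch without peaks around CFTR ranked 384 by length among 34090 such stretches in BxPC3 replicate 1 and 352 among 38312 in replicate 2. In Panc327 the stretch was 918 kb in replicate 1, rank 560 of 27753, and 1228 kb in replicate 2, rank 424 of 29116. In SUIT2 the 428 kb that follow the shared region before the window also held no peak in either replicate. Past the shared region after the window, no library had a peak from 0.75 to 1.25 Mb after the CFTR start.

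The 750 kb before the window, on the side of ST7, CAPZA2 and MET, held 55.2 and 59.3 kb under peaks in BxPC3 and 57.6 and 58.4 kb in SUIT2. Panc327 there held 7.47 kb in replicate 1 and 25.9 kb in replicate 2. The 750 kb after the window held at most 6.30 kb in any library. Before the window, the near-equal totals of BxPC3 and SUIT2 went with opposite differences by position. These are given in 250-kb bins counted from the CFTR start, and the outer bin reaches beyond the 750 kb before the window. From 1.0 to 0.75 Mb before the CFTR start, BxPC3 covered 55.6 and 61.3 kb and SUIT2 42.1 and 43.2 kb. In the next 250 kb, closer to the window, BxPC3 covered 7.91 and 9.35 kb and SUIT2 21.3 and 21.2 kb.

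**Figure D3:**
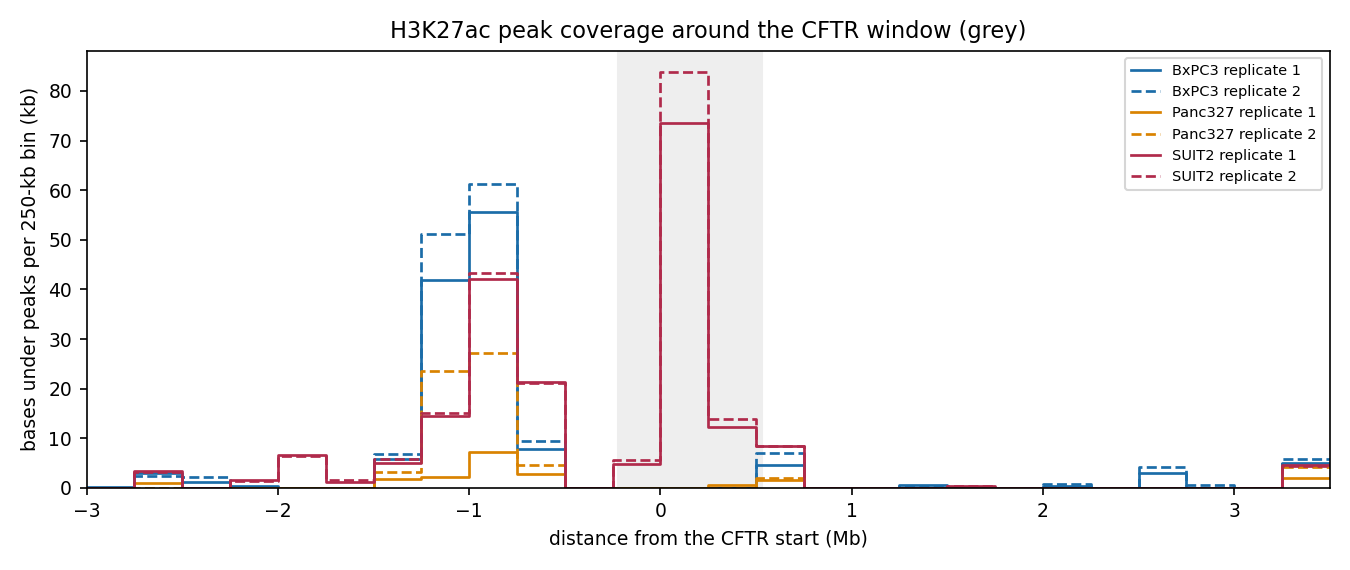
Bases under H3K27ac peaks (kb) in 250-kb bins against distance from the CFTR start (Mb), 1 line per library, solid for replicate 1 and dashed for replicate 2, with the window in grey. In the bin after the CFTR start SUIT2 reaches 73.6 and 83.9 kb and the other 4 libraries 0, while BxPC3 is highest in the bin that ends 0.75 Mb before the start, at 55.6 and 61.3 kb.

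Windows of 750 kb were stepped by 50 kb along chromosomes 1 to 22 and X and ranked by the smaller SUIT2 covered length minus the largest of the other 4 libraries. The CFTR window, at 91.7 kb, ranked 8 among windows that do not overlap. The 5 highest others lay on chromosome 9 from 21250001 to 22000000, chromosome 10 from 114150001 to 114900000, chromosome 17 from 57500001 to 58250000, chromosome 10 from 32000001 to 32750000 and chromosome 15 from 67000001 to 67750000. Their excess ran from 103 to 114 kb. In each of the 5, at least 1 other library covered 21.9 kb or more, against 1.13 kb at CFTR. Of the 60360 windows, 14473 had no more than 1.13 kb in any BxPC3 or Panc327 library, as here. Among those that do not overlap the CFTR window, the largest SUIT2 value was 49.2 kb, on chromosome 22 from 33550001 to 34300000, and the median was 0 kb. Those windows were picked for few BxPC3 and Panc327 peaks, and places poor in peaks in every line were not left out. A median of 0 kb is therefore no measure of how unusual the CFTR window is. The scan places the CFTR window as a description, since it was chosen for its SUIT2 excess.

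**Figure D4:**
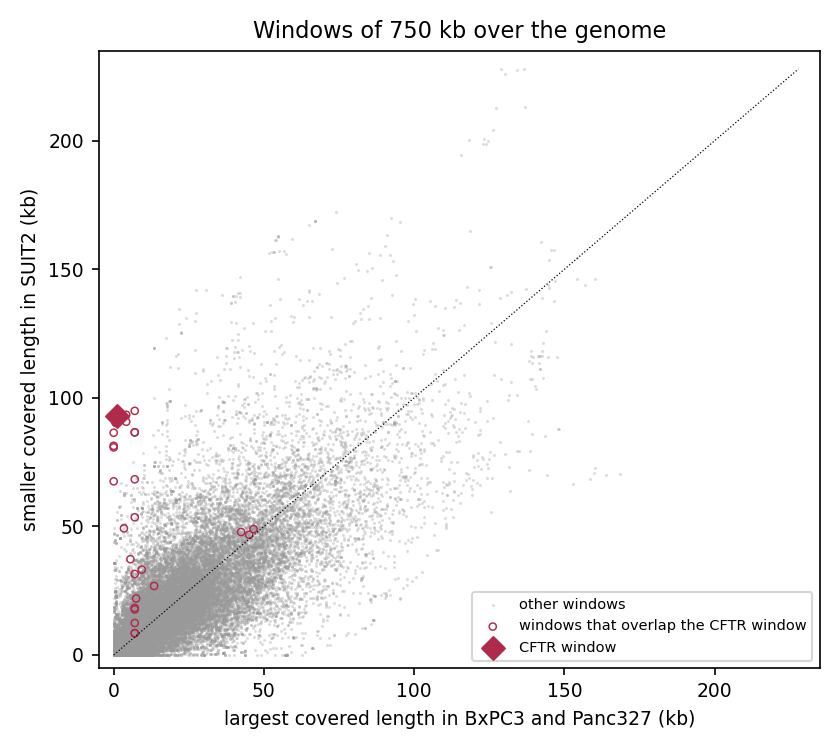
Each point is a 750-kb window of the genome, by the largest covered length in the 4 BxPC3 and Panc327 libraries (kb) and the smaller covered length of the 2 SUIT2 libraries (kb), with the dotted line at equal values. The CFTR window (diamond) sits at 1.13 and 92.8 kb, and open circles are windows that overlap it.

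Depth was not stated in the lists, whose lengths ran from 27776 to 38335 peaks and whose bases ran from 34.1 Mb in Panc327 replicate 1 to 63.3 Mb in SUIT2 replicate 2. Fold and −log10 p together gave the pile-up, the number of overlapping fragments at the summit, scaled by the caller in BxPC3. At the CFTR start it was 453 in SUIT2 replicate 1 and 467 in replicate 2. The lowest pile-up of any called peak was 20 and 21 in the SUIT2 lists, 16.5 and 17.2 in BxPC3, and 14 and 19 in Panc327. Lower pile-ups at CFTR were not detectable in those lists. At the shared regions beside the locus the pile-up was 165 to 294 in BxPC3 and 88 to 348 in Panc327.

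The local background against which the caller scored the SUIT2 peaks, solved in the same way, was slightly higher here than elsewhere. Its median under the window's peaks was 1.18 times the median under all chromosome 7 peaks of the list in replicate 1, and 1.11 times in replicate 2. The SUIT2 folds at CFTR are ratios to this background, while covered lengths and pile-ups are not. The part of this background in the result was not tested. BxPC3 and Panc327 had at most 1 peak per library from which to read theirs.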

How the data were processed

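H3K27ac peak lists of 6 libraries were used, 1 list per library. No file of the 6 input libraries was used here, and whether the caller took its background from them is not given in the sources used here. The submitters' processing notes name hg19, MACS2, Bowtie 1.1.1 and bcl2fastq 1.8.4. The MACS2 version and settings are not given in the sources used here. As fold, the authors deposited a ratio of pile-up to local background per peak. The −log10 of each p-value and q-value was likewise deposited as the caller gave it, and the lowest −log10 p was 10.0.

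Peaks on chromosomes 1 to 22 and X were merged where they shared at least 1 bp. Pile-up and background were solved from fold and −log10 p, taking MACS2's usual formulas, which no label states; this solved 100% of peaks in every list. Region calling and this step were tested on simulated data. Regions named in full were the 5 with the most covered bases per line and those at gene starts; other positions were named with their values in view. The window, members and lists were chosen with earlier results of these data known. Gene positions are the approximate hg19 ones that define the window. No hg19 gene table was used, so the planned lists of CFTR-related and cell type marker genes, and a check of the lines against duct markers, were not analysed here. Alternatives were a −log10 q of at least 20, equal list lengths, 50% overlap, merging up to 1 kb, a window trimmed by 100 kb on each side, joining within 20 kb, 5 kb around starts, a difference of means, another background, and each library left out. The software was pandas 2.3.3 and numpy 2.4.6 under Python 3.11.15, scipy 1.17.1 for statistics and matplotlib 3.10.9 for plots.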

Additional observations from a re-analysis of the deposited data

How the results depend on the processing

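Of 178 values under 15 alternatives, 158 stayed within 1.5 times the reported count or 1 SD of the reported length, and 20 moved. Part of the 158 could not move, since leaving out a library does not change the peak counts and covered lengths of the other lines. The SD, from 2 libraries, is also a loose bound. Without Panc327 replicate 1 the Panc327 covered length fell from 0.320 to 0 kb, which stayed within its SD of 0.452 kb. The tally is therefore no measure of robustness. At a −log10 q of at least 20, BxPC3-only regions, BxPC3 peaks and BxPC3 covered bases fell to 0, and SUIT2 kept a mean of 23 peaks over 88.7 kb. With equal list lengths the 3 BxPC3 values were also 0. BxPC3-only regions were 0 with 50% overlap, and the trimmed window held 0 of them and 0 kb under BxPC3 peaks. SUIT2-only regions ranged from 26 to 40 when 1 library was left out and were 16 with merging up to 1 kb. They were 19 at a −log10 q of at least 20 and 23 with equal list lengths or 50% overlap. The mean number of Panc327 peaks ranged from 0 to 1, and Panc327 libraries with a peak near the CTTNBP2 start from 0 to 1, when 1 library was left out. SUIT2 libraries with a peak near the CFTR start, and near the CTTNBP2 start, ranged from 1 to 2, the 1 being the library left. In all alternatives run, no BxPC3 or Panc327 library had a peak near the CFTR start, and each SUIT2 library used had one there. The window ranked between 7 and 9. Lower pile-ups than the caller's threshold cannot be seen in peak lists. No paired analysis was possible because no result comes from a test.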
